A study of Bos taurus with 24 samples.

Results

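Cumulus cells of late antral follicles were compared with cumulus cells of early antral follicles, across all genes of the deposited bovine (Bos taurus) count table. The members are the 10 libraries whose column headers mark cumulus cells of these stages, 5 of late antral cumulus (late_CC) and 5 of early antral cumulus (early_CC), out of 24 libraries in all. The labels give no age, strain or treatment for any group, and they do not say whether the 5 libraries of a group came from separate animals, so the p-values measure only the spread between these samples, which may be technical. The wider study asks at which follicle stages granulosa cells can grow back transzonal projections, fine extensions through the zona pellucida that reach the oocyte, and whether gene expression shifts over the same stages. Its other libraries are mural granulosa cells of the same stages (late_MGC and early_MGC, 5 each), used below to ask whether a change differed between cell types, and granulosa cells of secondary follicles (4).

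Cumulus cells are the granulosa cells that stay with the oocyte once a fluid-filled antrum has formed, while mural cells line the follicle wall. They supply the oocyte with cholesterol and, through gap junctions at the tips of the projections, with pyruvate and amino acids. They also pass it the cyclic GMP that holds it in meiotic arrest, and receive oocyte factors that keep them from becoming mural-like. In an ovulatory follicle they answer EGF-like ligands by laying down a hyaluronan matrix, the step called expansion.

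Totals were 14195614 to 20353473 counts per library in late_CC and 19596862 to 31762400 in early_CC. Gene symbols were joined by position to a RefSeq table of a later assembly, so that a single name can be wrong, and coordinates are those of the deposited table (ARS-UCD1.2). Levels are given as CPM, each count divided by the library total and multiplied by 1000000, without length correction, so they compare libraries and not genes. Changes are log2 fold changes of late_CC over early_CC with their standard error (SE), and a gene was called where edgeR's quasi-likelihood test gave a Benjamini-Hochberg adjusted p under 0.05. In bulk samples fewer cells of a type and less RNA per cell cannot be told apart. Of the 12 granulosa and cumulus markers all had counts in both groups, and they summed to 8706 to 35921 CPM in late_CC and 8570 to 10276 CPM in early_CC. The theca enzyme CYP17A1, the endothelial gene PECAM1, the erythroid genes SLC4A1 and KLF1, and the oocyte genes BMP15, FIGLA and DDX4 had no count in any of the 10 libraries. Other oocyte markers were low, the 16 matched ones summing to 10.3 to 20.7 CPM in late_CC and 8.79 to 30.1 CPM in early_CC. Of the 12 granulosa markers 5 were called higher and 1 lower by that test, of 6 tested oocyte markers 0 (also 0 at an unadjusted p under 0.05, but 1 lower with limma-voom or without late_CC 1), and of 7 tested blood and immune markers 1 higher, CD74, and 1 lower, PTPRC, both named after their values were seen. Of all tested genes 22.5% were called higher and 22.7% lower. CD74 stood at 0, 3.39, 1.11, 1.57 and 0.634 CPM in late_CC 1 to 5. In early_CC 1 to 5 it stood at 0, 0, 0, 0.474 and 0.0803 CPM. PTPRC had no count in late_CC, and 0.157, 0, 0.257, 0 and 0.321 CPM in early_CC 1 to 5. Both calls thus rest on few counts. Endothelial markers summed to 5.92 to 12.5 CPM in late_CC and 12.5 to 30.6 CPM in early_CC, blood and immune markers to 4.95 to 26.9 CPM in late_CC and 2.89 to 4.46 CPM in early_CC, and theca and stroma markers to 215 to 696 CPM in late_CC and 239 to 807 CPM in early_CC.

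Library late_CC 3 stood apart from the other late_CC libraries. Its mean correlation with its own group was 0.914, against 0.954 to 0.964 in the other late_CC libraries and 0.972 to 0.979 in early_CC. Counts from the mitochondrial genome made up 27.7% of it, 11.4% to 15.7% of the other late_CC libraries and 5.45% to 7.24% of early_CC libraries. Fits without it, and without this library and the 2 mural libraries that stood apart (late_MGC 3 and early_MGC 4), were also made. The headers give the late_MGC libraries no replicate number, so theirs only name columns.

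Between the cumulus stages 6457 of 14298 tested genes were called, 45.2% of them. Of these, 3210 (22.5% of tested genes) were higher and 3247 (22.7%) lower in late_CC. At least 2-fold changes made up 1960 of the rises (13.7% of tested genes) and 2307 of the falls (16.1%), and at least 4-fold changes 672 and 775. The median log2 fold change of all tested genes was 0.04. Of the lists below, those with shares near 22.5% higher and 22.7% lower are at the background, which is no result about their members. The CPM of 5068 genes (35.4%) did not overlap between the groups. In mural cells the same step in stage called 2725 genes (19.1%), 1396 higher (9.76%) and 1329 lower (9.30%) in late_MGC. Both comparisons called 1487 genes, 23.03% of the cumulus calls and 54.57% of the mural calls. Of these, 1040 moved the same way in both cell types and 447 in opposite ways. The mean correlation of late_MGC 3 with its group was 0.854, against 0.942 to 0.952 in the other late_MGC libraries. Mitochondrial counts made up 36.5% of early_MGC 4, against 12.5% to 20.9% of the other early_MGC libraries. Spread within a group lowers the number of calls, and its part in the smaller mural count was not tested. The smaller count is therefore no measure of how much mural cells changed.

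The median change varied with gene length. When tested genes were split into 10 equal groups by summed exon length, the median cumulus change was -0.78 in the group of 724 to 1236 bases and 0.67 in the group of 5006 to 25931 bases. Of the short group 6.499% were higher and 47.0% lower in late_CC, and of the long group 43.6% were higher and 7.76% lower. The mural medians lay between -0.03 and 0.10 in all 10 groups. With offsets corrected for length, a setting planned with earlier results known, 2634 genes rose and 3004 fell, and 4666 of the 6457 calls (72.3%) were kept in the same direction. The part of gene length in single changes was not tested, and the length-corrected value is given where it makes or ends a call of a named gene or moves its value by over 1.5 times.

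**Figure D1:**
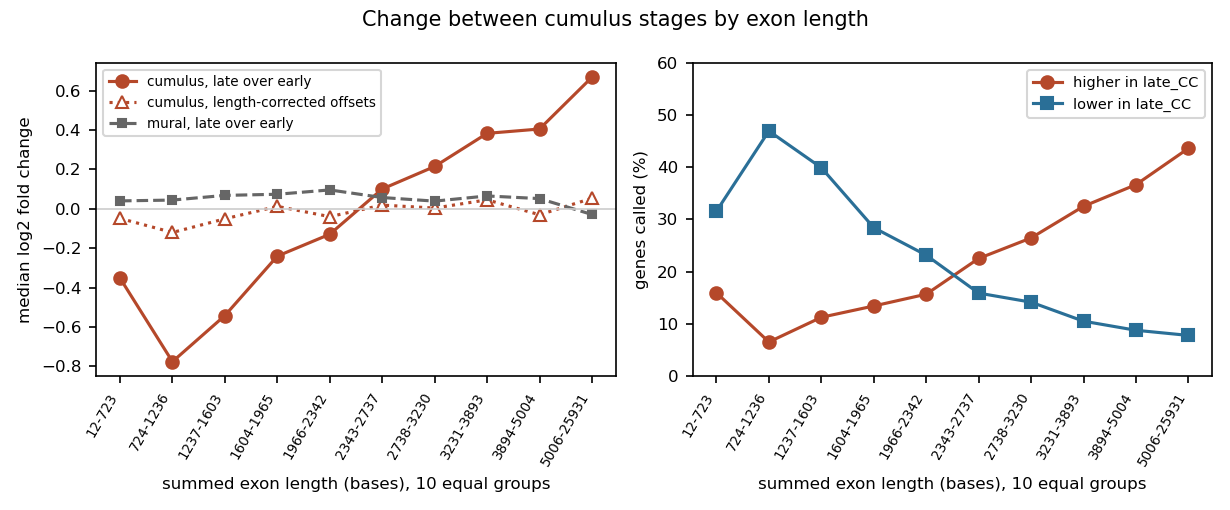
Left, median log2 fold change of tested genes in 10 equal groups of summed exon length (bases) for late_CC over early_CC (filled circles), the same with length-corrected offsets (open triangles) and late_MGC over early_MGC (squares). Right, percent of genes called higher or lower in late_CC in the same groups. The cumulus median runs between -0.78 and 0.67 while the mural one stays between -0.03 and 0.10.

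Genes of DNA replication and mitosis were lower in late_CC. Of 41 tested replication and licensing genes 34 (82.9%) fell and none rose (median -1.36), and of 53 genes of mitosis, spindle and kinetochore 45 (84.9%) fell and none rose (median -1.49), beside 22.7% of all genes called lower and a median of 0.04. SPC24, a subunit of the kinetochore complex that holds microtubules (ENSBTAG00000006185, chromosome 7, 15587514 to 15594237), stood at 63.5, 54.5, 47, 63.5 and 46.1 CPM in late_CC 1 to 5, against 386, 476, 325, 305 and 429 CPM in early_CC 1 to 5 (log2 fold change -2.80 ± 0.33, adjusted p = 8e-07). Every late_CC library lay below every early_CC library by a wide margin. PCNA, the sliding clamp of DNA polymerases (ENSBTAG00000006065, chromosome 13, 47430406 to 47436478), stood at 110.0, 57.7, 48.3, 78.6 and 52.3 CPM in late_CC 1 to 5, against 473, 346, 349, 307 and 481 CPM in early_CC 1 to 5 (log2 fold change -2.49 ± 0.36, adjusted p = 8e-06). Its groups did not overlap either, with late_CC 1 the highest of late_CC. The mitotic kinase CDK1 stood at 17.1, 16.9, 15, 23.7 and 13 CPM in late_CC 1 to 5, against 111, 92.1, 47.7, 57.2 and 91.1 CPM in early_CC 1 to 5 (log2 fold change -2.22 ± 0.30, adjusted p = 3.2e-06). CCNA2, the cyclin of S phase and mitotic entry (-2.53 ± 0.34), and the mitotic kinase PBK (-2.36 ± 0.34) fell likewise. So did the clamp loader subunit RFC3 (-1.85 ± 0.25), thymidylate synthase TYMS (-1.74 ± 0.24), the licensing inhibitor GMNN (-2.14 ± 0.30) and the maintenance methylation factor UHRF1 (-2.02 ± 0.29). MKI67, the usual proliferation antigen and at 11738 exonic bases a long gene, ranged over 18 to 56.8 CPM in late_CC, against 53.2 to 98.9 CPM in early_CC (log2 fold change -1.03 ± 0.41, adjusted p = 0.042). Its call was lost when any 1 of 7 cumulus libraries was left out (late_CC 1, 3 or 5, early_CC 1, 2, 4 or 5), with adjusted p between 0.0546 and 0.124, and its length-corrected value was -1.84 (adjusted p = 0.0018). Limma-voom did not call MKI67 either (adjusted p = 0.0611). With length-corrected offsets 38 replication genes and 51 mitosis genes fell.

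None of these genes was called lower in mural cells. The median change of late_MGC over early_MGC was 0.53 for the replication list and 0.46 for the mitosis list, with 7 and 5 members called higher and none lower. Of all genes 9.76% were higher and 9.30% lower in late_MGC, and the 5 of 53 mitosis genes are near that share of rises. The cumulus change minus the mural change was called negative for 36 of 41 replication genes and 43 of 53 mitosis genes and positive for none, where 16.9% of all genes were negative. For SPC24 this difference was -3.59 ± 0.45, adjusted p = 8.7e-06. Among G1 regulators 5 of 24 tested genes (20.8%) were higher and 8 (33.3%) lower, against 22.5% and 22.7% of all genes. The antiproliferative gene BTG1 rose (592 ± 159 CPM in late_CC and 269.8 ± 47.4 CPM in early_CC, SD, n = 5 each; log2 fold change 1.12 ± 0.18, adjusted p = 2e-05), as did the CDK inhibitor CDKN1B (1.27 ± 0.22) and the D-type cyclin CCND2 (1.44 ± 0.34), which in granulosa cells responds to FSH. CDK4, the partner of D-type cyclins, fell (-0.95 ± 0.22), and so did the repressor E2F8 (-1.34 ± 0.35). Of the replication-dependent histones, which are made in S phase, 3 of 13 (23.1%) rose and 3 fell, shares near those of all genes, and 5 rose without late_CC 2. H2AX fell (-2.16 ± 0.27), whereas the linker histones H1-2 (1.64 ± 0.30) and H1-4 (1.72 ± 0.31) rose. Histone copies may share reads, and mature histone messages lack a poly(A) tail.

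**Figure D2:**
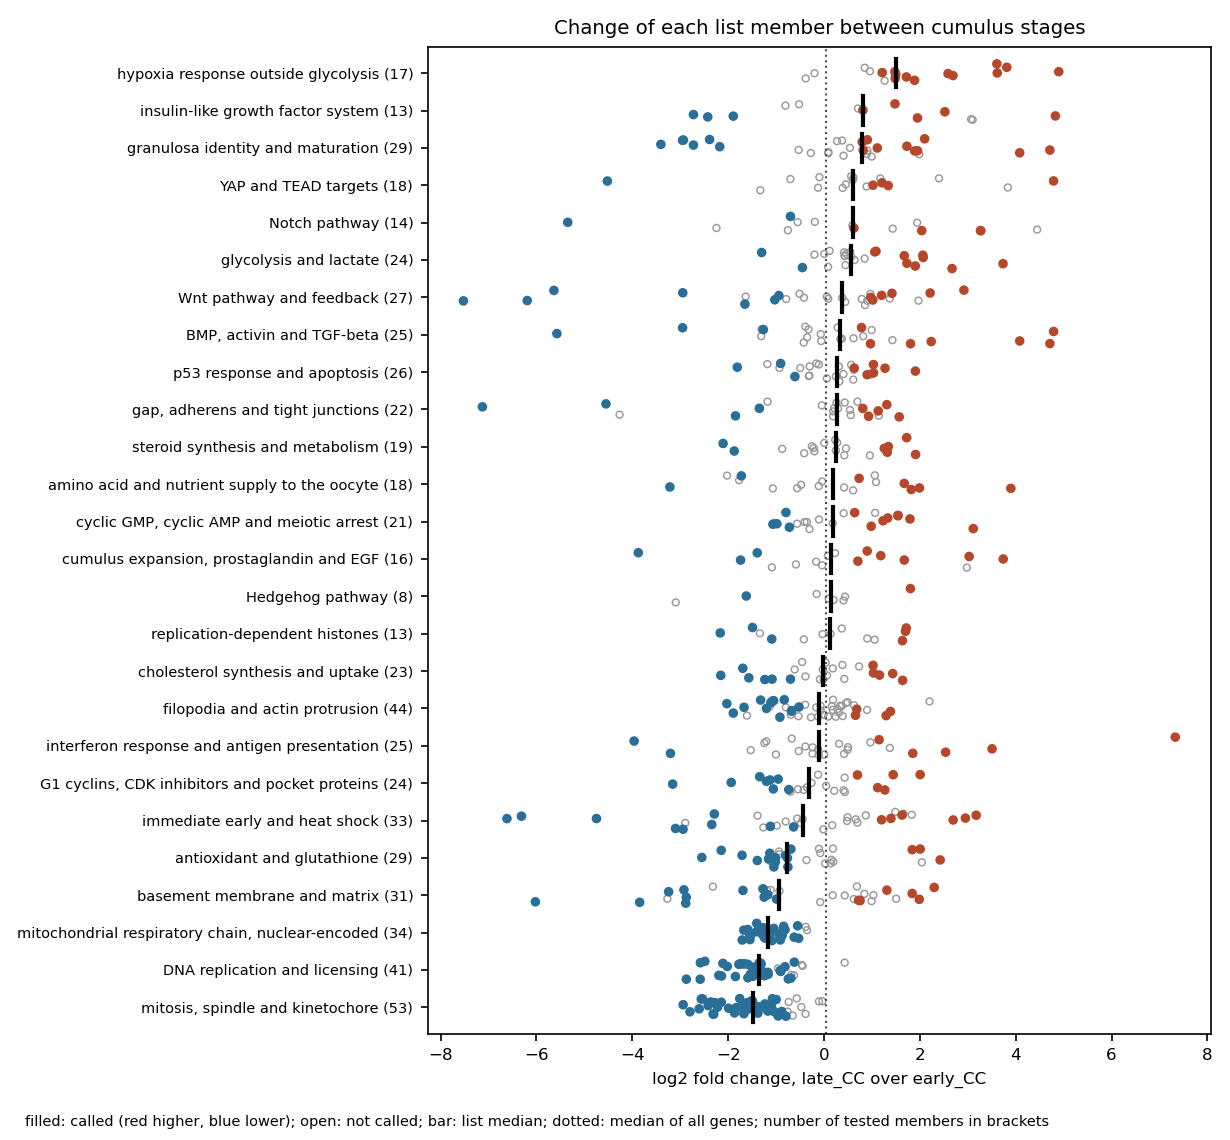
Each point is 1 tested member of a gene list, placed by its log2 fold change of late_CC over early_CC; filled points are called, bars mark list medians and the dotted line the median of all tested genes (0.04). Mitosis and replication lists lie at the bottom with medians of -1.49 and -1.36, and the hypoxia list at the top with 1.498.

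Genes of the nuclear-encoded respiratory chain fell almost as a block. Of 34 tested members 32 (94.1%) fell and none rose, beside 22.7% of all genes lower, with a median of -1.16 and single values between -1.71 and -0.35. NDUFA4, a small subunit of cytochrome c oxidase (ENSBTAG00000011145, chromosome 4, 19041321 to 19049196), stood at 556, 428, 339, 328 and 353 CPM in late_CC 1 to 5, against 1324, 1469, 1281, 1297 and 1242 CPM in early_CC 1 to 5 (log2 fold change -1.71 ± 0.20, adjusted p = 5.1e-07). The lowest early_CC library was more than 2-fold above the highest late_CC library. COX5A, another subunit of that oxidase, ranged over 176 to 272 CPM in late_CC, against 546 to 655 CPM in early_CC (log2 fold change -1.59 ± 0.22, adjusted p = 4.1e-06). The complex I subunits NDUFA8 (-1.67 ± 0.23) and NDUFB8 (-1.54 ± 0.21) fell by like amounts. In mural cells 10 of these 34 genes were called higher and none lower (median 0.45), where 9.76% of all genes were higher and 9.30% lower. The difference between the cell types was called for 32 of 34 and was negative each time, where 16.9% of all genes were negative. It was -2.43 ± 0.27 for NDUFA4. These are short genes, with a median exon length of 1212.5 bases. With length-corrected offsets 24 still fell and the median was -0.69, and NDUFA4, NDUFA8 and NDUFB8 stood at -1.07, -1.04 and -0.91.

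The mitochondrial genome moved the other way, mainly in its ribosomal RNAs. The larger rRNA gene (KEH36_r01, 1571 bases) stood at 51647, 69690.1, 141757, 77949.9 and 76751 CPM in late_CC 1 to 5, against 8705, 17111, 11537, 14619 and 13109 CPM in early_CC 1 to 5 (log2 fold change 2.71 ± 0.45, adjusted p = 3.6e-05). The late_CC libraries were all above early_CC, with late_CC 3 the highest. The smaller one, KEH36_r02, had 30606 to 69198 CPM in late_CC, against 11664 to 19694 CPM in early_CC (log2 fold change 1.34 ± 0.40, adjusted p = 0.0084; length-corrected 2.07). Both rRNAs together took 8.23%, 10.3%, 21.1%, 11.9% and 11.3% of the counts of late_CC 1 to 5, against 2.04%, 3.68%, 2.94%, 3.35% and 2.92% of early_CC 1 to 5. The 13 protein genes of the mitochondrial genome took 3.14% to 6.56% in late_CC and 2.55% to 3.84% in early_CC, ranges that overlap. Of these 13, 8 were called higher and none lower, where 22.5% of all genes were higher and 22.7% lower. Those higher included the complex I genes ND1 (1.40 ± 0.37) and ND4 (1.06 ± 0.35, length-corrected 1.59), the ATP synthase gene ATP8 (2.39 ± 0.55) and CYTB of complex III (1.02 ± 0.39, length-corrected 1.67). The CYTB call was lost without late_CC 3 (adjusted p = 0.0502) and without any of 3 other libraries, late_CC 4, early_CC 2 and early_CC 5. The oxidase genes COX1 (-0.41 ± 0.37) and COX3 (-0.11 ± 0.39) were not called. COX1 stood at 5170.2, 4605, 15559, 6119 and 4782 CPM in late_CC 1 to 5, against 10644, 7138, 11624, 11415 and 8353 CPM in early_CC 1 to 5, and without late_CC 3 it fell by 0.96 on the log2 scale (adjusted p = 0.0199). The share of mitochondrial RNA is also a property of RNA quality, and its part in these results was not tested. Without mitochondrial genes in the fit 3069 genes rose and 3330 fell.

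**Figure D3:**
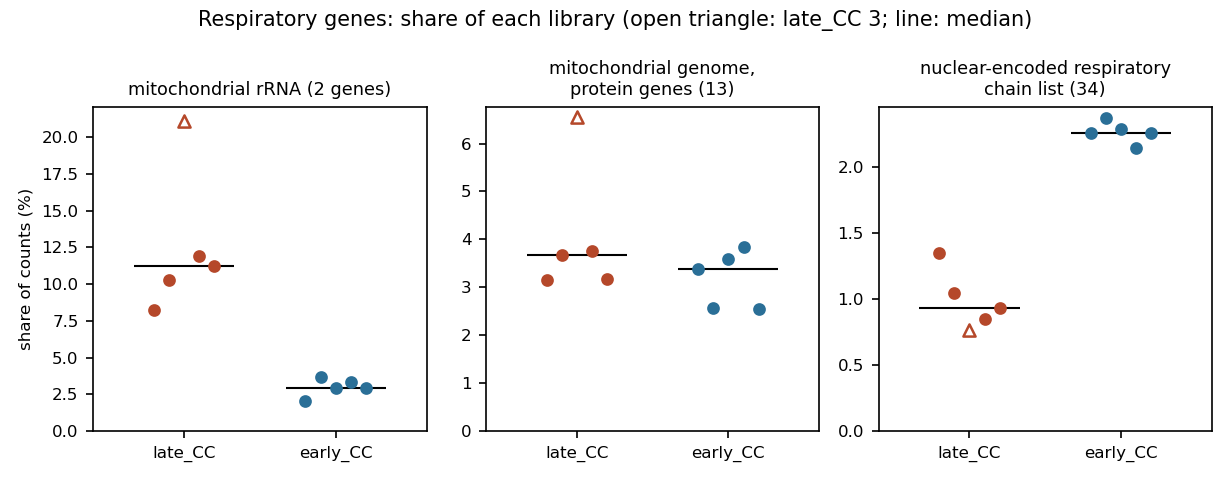
Share of counts (%) per library taken by the 2 mitochondrial rRNA genes, the 13 mitochondrial protein genes and the 34 nuclear-encoded respiratory chain genes; points are libraries, the open triangle is late_CC 3 and lines are medians of 5. The rRNA shares and the nuclear-encoded shares do not overlap between late_CC and early_CC, while those of the mitochondrial protein genes do.

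Hypoxia response genes outside glycolysis rose, 12 of 17 tested (70.6%) with none lower and a median of 1.498, beside 22.5% of all genes called higher. These genes are targets or members of the pathway of hypoxia-inducible factor, which prolyl hydroxylases mark for destruction when oxygen is plentiful. VEGFA, the main growth factor of blood vessels (ENSBTAG00000005339, chromosome 23, 17281915 to 17297193), stood at 663, 1219, 209.5, 1458 and 1404 CPM in late_CC 1 to 5, against 35.1, 65.7, 129, 55.1 and 61 CPM in early_CC 1 to 5 (log2 fold change 3.81 ± 0.51, adjusted p = 5.3e-06). The groups did not overlap, but late_CC 3 was 3-fold or more below each other late_CC library. EGLN3, one of the prolyl hydroxylases (ENSBTAG00000008172, chromosome 21, 44387137 to 44416154), stood at 49.5, 84.5, 15.3, 72.1 and 74.1 CPM in late_CC 1 to 5, against 0.945, 2.5, 3.94, 1.72 and 0.683 CPM in early_CC 1 to 5 (log2 fold change 4.90 ± 0.73, adjusted p = 1.9e-05). The peptide hormone ADM ranged over 603 to 1321 CPM in late_CC, against 57.3 to 127 CPM in early_CC (log2 fold change 3.62 ± 0.58, adjusted p = 3.6e-05). HIF1A, the oxygen-regulated subunit itself, was abundant and rose (2796 ± 535 CPM in late_CC and 991 ± 177 CPM in early_CC, SD, n = 5 each; log2 fold change 1.49 ± 0.22, adjusted p = 8e-06). The histone demethylase KDM3A rose by 1.72 ± 0.24. In mural cells the list had a median of -0.08, and the cumulus change exceeded the mural one for 11 of 17 genes and was below it for none, where 14.5% of all genes were positive. For VEGFA the difference was 4.37 ± 0.69, adjusted p = 7.5e-05.

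Of 24 tested glycolysis genes 9 (37.5%) were higher and 2 (8.33%) lower, with a median of 0.56, against 22.5% and 22.7% of all genes. PFKFB3, which makes the strongest activator of phosphofructokinase (ENSBTAG00000008401, chromosome 13, 17205507 to 17372393), stood at 152, 193, 56.3, 406 and 262 CPM in late_CC 1 to 5, against 6.33, 16.4, 24.8, 12.9 and 18.3 CPM in early_CC 1 to 5 (log2 fold change 3.74 ± 0.42, adjusted p = 5.7e-07). All late_CC libraries exceeded all early_CC libraries, late_CC 3 by the least. Its relative PFKFB4 rose by 2.07 ± 0.25, the hexokinase HK2 by 1.73 ± 0.36 and the glucose transporter SLC2A1 by 1.68 ± 0.45. PDK1, the kinase that closes pyruvate entry into mitochondria, stood at 181, 219, 28.8, 212 and 203 CPM in late_CC 1 to 5, against 41.3, 45.9, 49.8, 46.1 and 39.5 CPM in early_CC 1 to 5 (log2 fold change 1.91 ± 0.37, adjusted p = 0.00022). In late_CC 3 it was below every early_CC library. TPI1 (-1.30 ± 0.49) and LDHB (-0.45 ± 0.18) were called lower, and length-corrected offsets ended both calls (-1.03 and -0.23, adjusted p = 0.0613 and 0.245). Both were also lost without any 1 of late_CC 2, 3 or 4 and early_CC 1 or 5 (adjusted p up to 0.0705 for TPI1), and that of LDHB without any 1 library but late_CC 1 (adjusted p up to 0.116) and with only the 2 cumulus groups fitted (adjusted p = 0.0574). Without late_CC 3 the list had 17 members higher and none lower with a median of 0.80, and with length-corrected offsets 11 and none. The mural change of PFKFB3 was -0.64 ± 0.39, so that the 2 cell types differed by 4.38 ± 0.57, adjusted p = 1.2e-05.

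**Figure D4:**
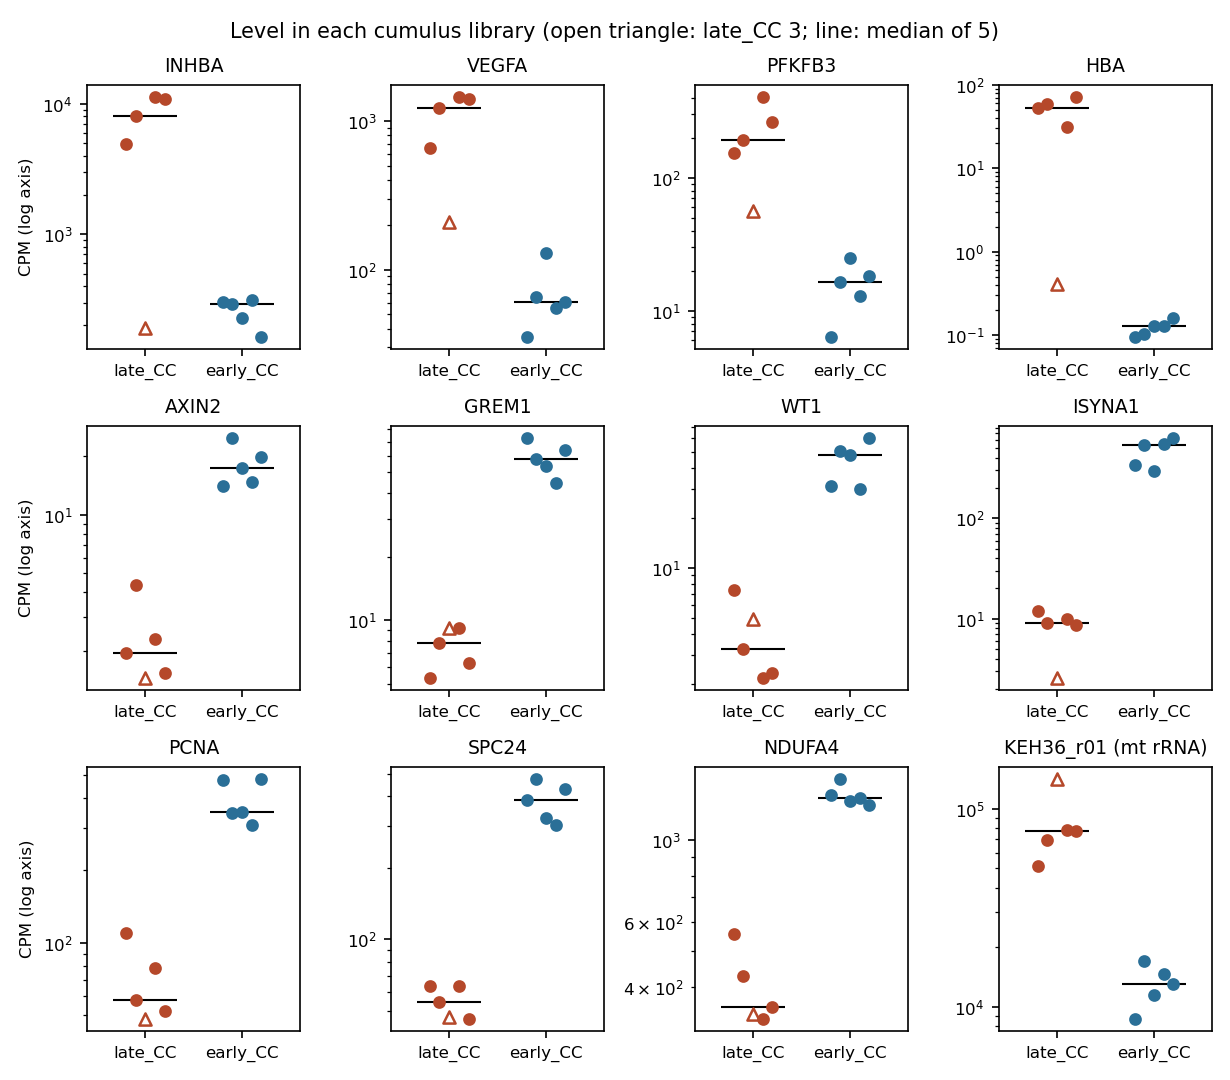
CPM on log axes in each of the 5 late_CC libraries (left in each panel) and the 5 early_CC libraries (right) for 12 genes named in the text; open triangles are late_CC 3 and lines are medians. The panels of AXIN2, GREM1, WT1, ISYNA1, PCNA, SPC24 and NDUFA4 show late_CC wholly below early_CC, and late_CC 3 lies apart from the other late_CC libraries for INHBA, VEGFA and HBA.

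Genes of granulosa identity and maturation were higher in 10 of 29 tested cases (34.5%) and lower in 6 (20.7%), beside 22.5% and 22.7% of all genes. INHBA, the beta A subunit that forms activin A and inhibin A (ENSBTAG00000048508, chromosome 4, 79288772 to 79302445), stood at 4889.8, 8039, 191, 11334 and 10799 CPM in late_CC 1 to 5, against 303, 293, 229.9, 316 and 163 CPM in early_CC 1 to 5 (log2 fold change 4.71 ± 0.83, adjusted p = 0.00011). In late_CC 1, 2, 4 and 5 INHBA was over 10-fold above every early_CC library, whereas late_CC 3 lay within the early_CC range. INHBB, the beta B subunit, stood at 1023, 1383, 383, 1625 and 1386 CPM in late_CC 1 to 5, against 82.2, 99.1, 32.7, 56.9 and 67.7 CPM in early_CC 1 to 5 (log2 fold change 4.08 ± 0.56, adjusted p = 7.2e-06) and did not overlap. The alpha subunit INHA, which turns activins into inhibins, ranged over 1076 to 3425 CPM in late_CC, against 1228 to 1409 CPM in early_CC and was not called (log2 fold change 0.91 ± 0.56, adjusted p = 0.20). FST, the binding protein that neutralises activin, ranged over 3044 to 13529 CPM in late_CC, against 3849 to 4806 CPM in early_CC (log2 fold change 0.99 ± 0.55, adjusted p = 0.14), and AMH over 208 to 799.5 CPM in late_CC, against 256 to 472 CPM in early_CC (log2 fold change 0.80 ± 0.58, adjusted p = 0.27). INHA, FST and AMH were called higher when only the 2 cumulus groups were fitted (adjusted p = 0.011, 0.0187 and 0.0374), and without the 3 libraries that stand apart (adjusted p = 8.27e-05, 6.98e-06 and 0.000672). INHA was also called with length-corrected offsets (1.51, adjusted p = 0.04) and with a replicate block (adjusted p = 0.0359). In late_MGC 3 INHA stood at 26.3 CPM, FST at 83 CPM and AMH at 2.73 CPM, each below every other late_MGC library. Mural libraries share the reported fit's estimate of spread, and the part of late_MGC 3 in its missing calls was not tested. The nuclear receptor NR5A2 (519 to 1178 CPM in late_CC, against 159 to 289.8 CPM in early_CC), the protease inhibitor SERPINE2 (1.73 ± 0.27) and the transcription factor GATA6 (1.89 ± 0.30) rose. The FSH receptor FSHR ranged over 301 to 397 CPM in late_CC, against 254 to 424 CPM in early_CC and was not called (log2 fold change 0.09 ± 0.46, adjusted p = 0.89). LHCGR, the receptor of luteinising hormone, was too low to test, with counts in 1 late_CC library (0.415 CPM) and 2 early_CC libraries (0.063 and 0.345 CPM).

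WT1, a transcription factor of early granulosa cells (ENSBTAG00000047268, chromosome 15, 63118358 to 63168835), stood at 7.33, 3.24, 4.91, 2.17 and 2.32 CPM in late_CC 1 to 5, against 31, 50.2, 47.5, 29.6 and 60.6 CPM in early_CC 1 to 5 (log2 fold change -3.40 ± 0.30, adjusted p = 1.2e-08). The BMP antagonist GREM1 (ENSBTAG00000050495, chromosome 10, 29964364 to 29978686) stood at 5.32, 7.76, 9.21, 9.18 and 6.27 CPM in late_CC 1 to 5, against 73, 57.6, 53.6, 44.6 and 63.9 CPM in early_CC 1 to 5 (log2 fold change -2.95 ± 0.24, adjusted p = 5e-09). AMHR2, the receptor of AMH, ranged over 0.277 to 1.92 CPM in late_CC, against 3.32 to 9.56 CPM in early_CC (log2 fold change -2.39 ± 0.44, adjusted p = 0.00011). In all 3 genes every late_CC library was below every early_CC library. Their mural changes were -3.40 ± 0.30, -2.33 ± 0.23 and -3.26 ± 0.46, and no difference between the cell types was called (adjusted p = 0.9999, 0.14 and 0.29).

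Steroid genes rose in 5 of 19 cases (26.3%) and fell in 2 (10.5%), against 22.5% and 22.7% of all genes. CYP11A1, which starts steroid synthesis by cleaving the side chain of cholesterol, stood at 216, 221, 57.2, 348 and 240.0 CPM in late_CC 1 to 5, against 51.6, 37.6, 55.2, 87.3 and 49.9 CPM in early_CC 1 to 5 (log2 fold change 1.91 ± 0.39, adjusted p = 0.00041). The groups overlapped only through late_CC 3 and early_CC 4. HSD3B1, the next enzyme of progesterone synthesis, stood at 211, 218, 39.5, 200.4 and 187 CPM in late_CC 1 to 5, against 69.4, 45.3, 46.3, 128 and 48.4 CPM in early_CC 1 to 5 (log2 fold change 1.32 ± 0.44, adjusted p = 0.017). In late_CC 3 it was below every early_CC library. In mural cells HSD3B1 rose by 3.66 ± 0.48, and the cumulus change was smaller by a difference of -2.34 ± 0.62, adjusted p = 0.0063. CYP19A1, the aromatase that makes oestradiol, ranged over 4.36 to 60.3 CPM in late_CC, against 8.88 to 14.7 CPM in early_CC (log2 fold change 1.73 ± 0.66, adjusted p = 0.037). Its call was lost without any 1 of 7 libraries (late_CC 2, 4 or 5, early_CC 1, 2, 3 or 5, adjusted p up to 0.0751). The CYP19A1 call was also lost with length-corrected offsets (1.24, adjusted p = 0.143), a replicate block (adjusted p = 0.0549), limma-voom (1.40, adjusted p = 0.222) and no filter (adjusted p = 0.0765). The cholesterol carrier STAR had 4.32 to 5.44 CPM in late_CC, against 1.99 to 2.95 CPM in early_CC, without overlap, and was not called (log2 fold change 0.96 ± 0.78, adjusted p = 0.33), though it was with only the 2 cumulus groups fitted (adjusted p = 0.00679), also with a replicate block (adjusted p = 0.0151), and without the 3 libraries that stand apart (adjusted p = 0.0128). In late_MGC 3 STAR stood at 123 CPM, and in the other late_MGC libraries at 1.74 to 4.71 CPM. Mural libraries share the fit's estimate of spread, and the part of late_MGC 3 in the missing STAR call was not tested. The lipoprotein receptor SCARB1 (1.26 ± 0.20) and the steroid reductase SRD5A1 (1.34 ± 0.29) rose. HSD17B10, a mitochondrial dehydrogenase (-2.105 ± 0.22), and the mitochondrial cholesterol-binding protein TSPO (-1.87 ± 0.54) fell. The TSPO call was lost with length-corrected offsets (-1.26, adjusted p = 0.0674).

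Cholesterol synthesis and uptake did not move one way, with 5 of 23 genes higher (21.7%) and 6 lower (26.1%), near the shares of all genes, and a median of -0.01. Early pathway enzymes ACAT2 (-1.69 ± 0.27) and FDPS (-1.57 ± 0.32) and the late enzyme EBP (-2.15 ± 0.34) fell. Squalene epoxidase SQLE stood at 239, 212, 31.8, 466 and 302 CPM in late_CC 1 to 5, against 63.8, 80.9, 81.9, 80.4 and 85.3 CPM in early_CC 1 to 5 (log2 fold change 1.64 ± 0.36, adjusted p = 0.00079). It was highest in late_CC 4 and lowest of all 10 libraries in late_CC 3. LSS, which closes the sterol rings, rose by 1.43 ± 0.34. With length-corrected offsets 2 members rose and 6 fell.

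HAS2, PTX3 and TNFAIP6, genes of the expanding matrix, were low in 4 of 5 late_CC libraries. HAS2, the hyaluronan synthase of the expanding matrix (ENSBTAG00000019892, chromosome 14, 18093101 to 18125211), stood at 0.229, 0.393, 11, 0.362 and 0.986 CPM in late_CC 1 to 5, against 0.63, 0.102, 0.0856, 0.129 and 0 CPM in early_CC 1 to 5 (log2 fold change 3.74 ± 1.25, adjusted p = 0.017). The call rested on late_CC 3, without which the value was 1.25 (adjusted p = 0.396). PTX3, which links the matrix, had 0, 0, 5.68, 0 and 0 CPM in late_CC 1 to 5, against 0.189, 0, 0.0856, 0.302 and 0.12 CPM in early_CC 1 to 5, and was not called (log2 fold change 2.98 ± 2.04, adjusted p = 0.24). TNFAIP6, which couples hyaluronan to proteins, was too low to test, at 10.9 CPM in late_CC 3 and without a count in the other 9 cumulus libraries. Within late_CC both genes had counts in the 1 library that stood apart and in no other. PTGS2, the inducible prostaglandin synthase, had 0.115, 0, 0.415, 0.121 and 0.141 CPM in late_CC 1 to 5, against 3.53, 2.14, 0.342, 4.05 and 1.65 CPM in early_CC 1 to 5 (log2 fold change -3.87 ± 0.79, adjusted p = 0.00032). It fell, with an overlap through late_CC 3 and early_CC 3 alone. The prostaglandin E synthase gene PTGES2 fell too (-1.39 ± 0.25). Upstream of expansion, the EGF receptor EGFR rose, with 34.8 to 57.3 CPM in late_CC, against 11.5 to 19.2 CPM in early_CC (log2 fold change 1.68 ± 0.30, adjusted p = 6.9e-05), as did ADAM17, the protease that frees EGF-like ligands (1.18 ± 0.22), and the receptor ERBB3 (3.03 ± 0.74). In all, 6 of 16 tested genes of the list (37.5%) rose and 3 (18.8%) fell, against 22.5% and 22.7% of all genes.

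In the cyclic nucleotide list 8 of 21 genes (38.1%) rose and 4 (19%) fell, against 22.5% and 22.7% of all genes. With length-corrected offsets 4 rose and 4 fell, and without late_CC 1 only 2 fell. NPR2, the receptor guanylyl cyclase that makes cyclic GMP for the oocyte, ranged over 15.1 to 29 CPM in late_CC, against 6.85 to 11 CPM in early_CC (log2 fold change 1.23 ± 0.36, adjusted p = 0.0067), with a length-corrected value of 0.82 (adjusted p = 0.0792). The cyclic AMP phosphodiesterases PDE8A (1.33 ± 0.22) and PDE8B (1.55 ± 0.31) rose, and the adenylyl cyclase ADCY3 fell (-1.07 ± 0.29).

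Of 44 tested genes of filopodia and actin protrusion, parts from which actin-rich cell processes are built, 4 (9.09%) rose and 12 (27.3%) fell, beside 22.5% and 22.7% of all genes. MYO10, the motor that carries cargo to filopodial tips (ENSBTAG00000020126, chromosome 20, 56233771 to 56495596), stood at 90.5, 91.6, 70.5, 103 and 72.1 CPM in late_CC 1 to 5, against 28.1, 83.5, 76.6, 34.9 and 49.9 CPM in early_CC 1 to 5 (log2 fold change 0.66 ± 0.25, adjusted p = 0.034). The groups overlapped, the call was lost without any of 5 libraries (late_CC 2 or 4, early_CC 1, 4 or 5, adjusted p up to 0.106), and the length-corrected value was 0.03 (adjusted p = 0.93). The call was also lost with only the 2 cumulus groups fitted (adjusted p = 0.0553) and with no filter (adjusted p = 0.0625). In mural cells MYO10 fell (-1.08 ± 0.25, adjusted p = 0.0041), and the difference between the cell types was 1.74 ± 0.36, adjusted p = 0.00069, or 0.98 with length-corrected offsets (adjusted p = 0.016). FSCN1, the bundler of filopodial actin, ranged over 1.03 to 3.53 CPM in late_CC, against 1.21 to 3.81 CPM in early_CC and was not called (log2 fold change -0.07 ± 0.89, adjusted p = 0.96). The formin DAAM1 rose (1.39 ± 0.30, length-corrected 0.80). Several actin regulators fell. The monomer-binding protein PFN1 stood at 216, 161, 97, 132 and 164 CPM in late_CC 1 to 5, against 652, 574, 633, 495 and 813 CPM in early_CC 1 to 5 (log2 fold change -2.03 ± 0.28, adjusted p = 3.8e-06). The severing protein CFL1 (-1.32 ± 0.25, length-corrected -0.68), the capping subunit CAPZB (-1.67 ± 0.34) and the GTPase RAC1 (-0.92 ± 0.19) also fell. The difference from mural cells was called negative for 13 of 44 members and positive for 2, where 16.9% of all genes were negative and 14.5% positive.

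Among junction genes 5 of 22 (22.7%) rose and 4 (18.2%) fell, shares near those of all genes. The connexin GJA1, the main gap junction protein between granulosa cells, stood at 599.6 to 778 CPM in late_CC, against 363 to 606 CPM in early_CC and was not called (log2 fold change 0.54 ± 0.28, adjusted p = 0.12), though it was with only the 2 cumulus groups fitted, without a replicate block (adjusted p = 0.0382) or with one (adjusted p = 0.0258). GJA4, the connexin between oocyte and granulosa cells in mice, stood at 0.229, 0, 0.554, 0 and 0 CPM in late_CC 1 to 5, against 1.73, 3.98, 2.65, 5.77 and 4.78 CPM in early_CC 1 to 5 (log2 fold change -4.55 ± 1.18, adjusted p = 0.0034). GJA5, a connexin of vessels and heart, fell further (0, 0.197, 0.138, 0 and 0 CPM in late_CC 1 to 5, against 15.7, 13.3, 6.8, 6.81 and 11.9 CPM in early_CC 1 to 5; log2 fold change -7.13 ± 0.85, adjusted p = 8.5e-07). For GJA4 the difference from the mural change was -4.01 ± 1.49, adjusted p = 0.045. That call was lost with length-corrected offsets (adjusted p = 0.076) and without any 1 of 12 libraries, and without late_MGC 3 the value was -0.53 (adjusted p = 0.702). The cadherins CDH1 (0.43 ± 0.66) and CDH2 (0.56 ± 0.25) were not called, though CDH2 was without late_CC 1 (0.73, adjusted p = 0.0221) or early_CC 4 (0.69, adjusted p = 0.0364). The polarity protein PARD3 (1.31 ± 0.23), beta-catenin CTNNB1 (0.93 ± 0.17) and the junction linker AFDN (1.13 ± 0.21) rose, with length-corrected values of 0.65, 0.47 and 0.44 that remained called. The tight junction protein F11R fell (-1.85 ± 0.35).

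The Wnt feedback genes NKD1 and AXIN2 fell steeply. NKD1, an inhibitor that Wnt signals induce (ENSBTAG00000012295, chromosome 18, 18940443 to 19034788), stood at 0.229, 0, 0.138, 0.242 and 0 CPM in late_CC 1 to 5, against 23.5, 22.9, 27.8, 14.5 and 29.2 CPM in early_CC 1 to 5 (log2 fold change -7.52 ± 0.62, adjusted p = 6.7e-09). AXIN2, the usual reporter of the pathway, stood at 1.95, 4.37, 1.45, 2.3 and 1.55 CPM in late_CC 1 to 5, against 14.1, 24.9, 17.4, 14.7 and 19.7 CPM in early_CC 1 to 5 (log2 fold change -2.95 ± 0.34, adjusted p = 5.1e-07). Both were lower in every late_CC library than in any early_CC library. The ligands WNT6 (-5.63 ± 0.56) and WNT11 (-1.65 ± 0.33) fell, while the secreted dickkopf protein DKK3 (2.92 ± 0.40) and the transcription factor TCF7L2 (1.42 ± 0.20) rose. In all, 6 of 27 tested genes of the list (22.2%) rose and 7 (25.9%) fell, near the shares of all genes. NKD1 and AXIN2 fell in mural cells too (-6.87 ± 0.59 and -3.11 ± 0.34), and no difference was called (adjusted p = 0.61 and 0.83).

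In the BMP, activin and TGF-beta list 7 of 25 genes (28%) rose and 3 (12%) fell, against 22.5% and 22.7% of all genes. ID1, a target that BMP signals induce (ENSBTAG00000016169, chromosome 13, 61179938 to 61182003), stood at 1.03, 0.59, 0.831, 1.39 and 0.634 CPM in late_CC 1 to 5, against 38.2, 43.4, 29.5, 41.7 and 62.5 CPM in early_CC 1 to 5 (log2 fold change -5.57 ± 0.68, adjusted p = 2.5e-06). It was below 1.4 CPM in every late_CC library and above 29 CPM in every early_CC library. Its mural change was -2.69 ± 0.57, and the cell types differed by -2.88 ± 0.83, adjusted p = 0.011. The BMP signal transducer SMAD5 (0.78 ± 0.17, length-corrected 0.15, adjusted p = 0.466) and the co-receptor TGFBR3 (1.81 ± 0.38) rose. With length-corrected offsets 5 members rose and 5 fell. In the Notch list 4 of 14 (28.6%) rose and 2 (14.3%) fell, against 22.5% and 22.7% of all genes. Only 1 fell without any 1 of late_CC 2, 4 or 5 and early_CC 2, 3 or 4. HES1, a target repressor, stood at 87.7, 109.6, 79.2, 114 and 124 CPM in late_CC 1 to 5, against 7.43, 8.11, 17.3, 12.7 and 7.43 CPM in early_CC 1 to 5 (log2 fold change 3.27 ± 0.44, adjusted p = 5.2e-06). The ligands DLL4 (2.04 ± 0.48) and JAG2 (3.26 ± 0.93) rose with it, and the target HEYL fell (-5.35 ± 0.63). In late_CC 3 JAG2 stood at 0.138 CPM, below every early_CC library. Among Hedgehog genes the receptor PTCH1 rose (1.80 ± 0.29, length-corrected 1.12). Among YAP and TEAD genes the kinase LATS1 rose (1.34 ± 0.24, length-corrected 0.80) and the receptor AXL fell (-4.52 ± 1.18). There 4 of 18 (22.2%) were higher, near the share of all genes, and 1 (5.56%) lower, against 22.7% of all genes. Without late_CC 3, early_CC 2 or early_CC 4 the number higher was 2, and without early_CC 1 or early_CC 5 it was 1. Without late_CC 2 the number lower was 2, and without the 3 libraries that stand apart 2 were higher and 3 lower.

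In the insulin-like growth factor system 5 of 13 genes (38.5%) rose and 3 (23.1%) fell, beside 22.5% and 22.7% of all genes. Without late_CC 3, early_CC 1 or early_CC 5, or with length-corrected offsets, 3 rose. The receptor IGF1R ranged over 17.6 to 54.8 CPM in late_CC, against 7.43 to 13.1 CPM in early_CC (log2 fold change 1.95 ± 0.31, adjusted p = 2.5e-05). The binding protein IGFBP4 stood at 59.98, 58.3, 3.88, 92.1 and 81.6 CPM in late_CC 1 to 5, against 2.14, 2.81, 2.1, 1.64 and 1.53 CPM in early_CC 1 to 5 (log2 fold change 4.83 ± 0.85, adjusted p = 0.00011), with late_CC 3 just above early_CC. The binding proteins IGFBP7 (-1.89 ± 0.29) and IGFBP6 (-2.42 ± 0.52) fell.

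Immediate early and heat shock genes, which respond within minutes to handling as well as to signals, were higher in 6 of 33 cases (18.2%) and lower in 9 (27.3%), near the shares of all genes. FOSB stood at 4.24, 2.31, 5.19, 19 and 4.58 CPM in late_CC 1 to 5, against 73.8, 301, 68.1, 226 and 264 CPM in early_CC 1 to 5 (log2 fold change -4.75 ± 0.93, adjusted p = 0.00037). KLF4 fell to 0.229, 0.197, 0.138, 0.302 and 0 CPM in late_CC 1 to 5, against 7.3, 37.8, 3.98, 20.4 and 22.9 CPM in early_CC 1 to 5 (log2 fold change -6.61 ± 1.33, adjusted p = 0.00047), a call that limma-voom did not make (adjusted p = 0.0754). The heat shock gene HSPA1A (-2.94 ± 0.49) and the chaperone HSPA8 (-1.12 ± 0.22) fell. KLF10, which TGF-beta induces, rose (180.4 to 603 CPM in late_CC, against 34.6 to 61.6 CPM in early_CC; log2 fold change 3.18 ± 0.48, adjusted p = 1.7e-05), as did MYC (1.202 ± 0.24).

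Basement membrane and matrix genes rose in 6 of 31 cases (19.4%) and fell in 11 (35.5%), against 22.5% and 22.7% of all genes. In 3 cases they rose with length-corrected offsets or without early_CC 1. The metalloproteinase inhibitor TIMP3 stood at 8.24, 13.8, 8.03, 28.2 and 7.89 CPM in late_CC 1 to 5, against 181, 217, 153, 137 and 246 CPM in early_CC 1 to 5 (log2 fold change -3.85 ± 0.41, adjusted p = 3.3e-07). COL18A1, a basement membrane collagen, fell (-3.24 ± 0.58), while COL6A2 (2.30 ± 0.31) and COL4A3 (1.31 ± 0.34, length-corrected 0.80) rose. DCN, a stromal proteoglycan, stood at 1.55, 0.197, 0.554, 0.967 and 0.704 CPM in late_CC 1 to 5, against 146, 12.5, 27.5, 38.7 and 30.2 CPM in early_CC 1 to 5 (log2 fold change -6.02 ± 1.44, adjusted p = 0.002), with early_CC 1 far above the other early_CC libraries. Of the 11 tested theca and stroma markers 3 (27.3%) were called higher and DCN (9.09%) lower, against 22.5% and 22.7% of all genes. Those higher were PDGFRA (4.07 ± 1.08), COL1A1 (1.99 ± 0.69) and INSL3 (2.09 ± 0.80). PDGFRA stood at 14.3, 29.5, 79.5, 20.5 and 16.3 CPM in late_CC 1 to 5, against 2.64, 1.99, 1.41, 2.33 and 1.37 CPM in early_CC 1 to 5. INSL3 stood at 523, 480.3, 26.9, 382 and 597 CPM in late_CC 1 to 5, against 52.5 to 120.9 CPM in early_CC. It was thus above every early_CC library in late_CC 1, 2, 4 and 5 and below each of them in late_CC 3. The COL1A1 call was lost with length-corrected offsets (1.51, adjusted p = 0.0732) and without early_CC 1 (adjusted p = 0.0558), and the INSL3 call with limma-voom (adjusted p = 0.245) and without any 1 of 8 libraries (all but late_CC 3 and late_CC 4). Without late_CC 3 a second marker of the list was called lower. Of 6 tested endothelial markers 2 (33.3%) fell, against 22.7% of all genes. They were the vascular receptors FLT1 (-2.60 ± 0.43) and ENG (-1.93 ± 0.43). Of the calls of the blood and immune markers CD74 and PTPRC, at least 1 was lost without late_CC 2 or 4 or early_CC 1, 2, 3 or 5. The part of other cell types in these values was not tested.

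Antioxidant and glutathione genes fell in 13 of 29 cases (44.8%, against 22.7% of all genes) and rose in 3 (10.3%), with a median of -0.76. The mitochondrial superoxide dismutase SOD2 (-1.71 ± 0.25), its cytosolic relative SOD1 (-1.39 ± 0.26, length-corrected -0.75) and the quinone reductase NQO1 (-2.14 ± 0.37) fell. GPX4, the peroxidase of membrane lipids, stood at 3432, 3638, 364, 2994 and 3054 CPM in late_CC 1 to 5, against 639, 733, 569, 702 and 689 CPM in early_CC 1 to 5 (log2 fold change 2.01 ± 0.35, adjusted p = 5.5e-05). In late_CC 3 it was below every early_CC library, and the other 4 late_CC libraries were more than 4-fold above the highest of them. GCLC, the rate-limiting subunit of glutathione synthesis, rose (1.84 ± 0.42). With length-corrected offsets 9 members fell and 4 rose. Of genes of amino acid and nutrient supply to the oocyte, 5 of 18 (27.8%) rose and 2 (11.1%) fell, against 22.5% and 22.7% of all genes. Without early_CC 5, 3 rose; without late_CC 3 or with length-corrected offsets 4 fell, and without late_CC 4 or early_CC 1, 2 or 4 only 1 did. The amino acid transporter SLC38A1 stood at 52.5, 66.8, 87.6, 67 and 63.8 CPM in late_CC 1 to 5, against 18.5, 19.2, 14.8, 16.8 and 16.3 CPM in early_CC 1 to 5 (log2 fold change 1.99 ± 0.19, adjusted p = 3.4e-08). The glutamate transporter SLC1A1 rose (3.90 ± 0.75), though late_CC 3 (2.35 CPM) lay below early_CC 3 (3.81 CPM). CPT1A, the gate of fatty acid oxidation, fell (2.8, 2.31, 1.31, 3.26 and 1.55 CPM in late_CC 1 to 5, against 16.6, 22.8, 24.9, 11.5 and 29.8 CPM in early_CC 1 to 5; log2 fold change -3.22 ± 0.48, adjusted p = 1.6e-05).

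Genes of p53 response and apoptosis were called in 9 of 26 cases, 6 higher (23.1%, near the share of all genes) and 3 lower (11.5%, against 22.7% of all genes). The p53 inhibitors MDM4 (1.91 ± 0.22) and MDM2 (0.90 ± 0.15, length-corrected 0.59) and the stress gene SESN2 (1.03 ± 0.22, length-corrected 0.62) rose, and the caspase CASP6 fell (-1.81 ± 0.33). Of 25 interferon and antigen presentation genes 5 (20%) rose and 2 (8%) fell, against 22.5% and 22.7% of all genes. Only 3 rose without any 1 of late_CC 2 or 4 and early_CC 2, 3 or 5. The RNA sensor IFIH1 (2.54 ± 0.40) and the peptide loading factor TAPBP (1.15 ± 0.17) rose. PSMB9, an immunoproteasome subunit, fell to 17.3, 8.25, 11.1, 10.2 and 9.58 CPM in late_CC 1 to 5, against 85.9, 98.2, 109.9, 115 and 119.7 CPM in early_CC 1 to 5 (log2 fold change -3.20 ± 0.23, adjusted p = 1e-09). BOLA-DQB1, an antigen-presenting chain of a multigene family, stood at 10.02, 11.2, 0.554, 13.1 and 14.7 CPM in late_CC 1 to 5, against 153, 170.3, 0.0856, 305 and 134 CPM in early_CC 1 to 5 (log2 fold change -3.96 ± 1.22, adjusted p = 0.012). Early_CC 3 was thus the lowest of all 10 libraries, and limma-voom made no call (adjusted p = 0.356).

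Among called genes with a symbol, at least 10 CPM and no overlap, the largest rises were those of the alpha globins HBA1 and HBA. HBA (ENSBTAG00000051412, chromosome 25, 216448 to 217264) stood at 53.3, 59.1, 0.415, 30.8 and 71.9 CPM in late_CC 1 to 5, against 0.0945, 0.102, 0.128, 0.129 and 0.161 CPM in early_CC 1 to 5 (log2 fold change 8.38 ± 0.98, adjusted p = 1.2e-06). Late_CC 3 was nearest to early_CC, and each other late_CC library was over 100-fold above every early_CC library. HBA1, an alpha globin gene whose reads may be shared with HBA, had 1117 counts over late_CC and 2 over early_CC, a ratio of levels of 826 with an exact 95% binomial interval of 228 to 6830 that covers counting error only. Its fitted change was 9.08 ± 0.99. The embryonic globin HBZ stood at 56.2, 110.3, 3.18, 142 and 127 CPM in late_CC 1 to 5, against 1.29, 2.55, 2.14, 0.776 and 1.12 CPM in early_CC 1 to 5 (log2 fold change 5.77 ± 0.72, adjusted p = 2.7e-06). Beta globin HBB had no count in any of the 10 libraries, and neither had the erythroid genes named above. Myoglobin MB (-3.43 ± 0.82) and cytoglobin CYGB (-3.35 ± 1.07) fell, the CYGB call being lost without early_CC 5 (adjusted p = 0.0511). Other large rises were those of ANKRD44, a phosphatase subunit (6.54 ± 0.77), the kinase RIPK4 (6.11 ± 0.77), BREH1 (6.09 ± 1.04), the RNA-binding protein RBM46 (5.93 ± 1.06), needed for meiosis in mouse germ cells, the adaptor SKAP2 (5.23 ± 0.56), the glutamate receptor subunit GRIK2 (5.17 ± 0.62) and the mitochondrial tRNA gene KEH36_t15 (4.49 ± 0.86). RBM46 stood at 22.5, 31.4, 35, 39.8 and 35.6 CPM in late_CC 1 to 5, against 0.819, 0.102, 1.67, 0 and 0 CPM in early_CC 1 to 5. Among abundant genes, PLEK, a substrate of protein kinase C, stood at 215, 191, 15.8, 199 and 240.1 CPM in late_CC 1 to 5, against 11.1, 12, 10.2, 14.9 and 6.14 CPM in early_CC 1 to 5 (log2 fold change 3.96 ± 0.62, adjusted p = 3.1e-05). Late_CC 3 was again close to early_CC. COL21A1, a fibril-associated collagen (3.89 ± 0.42), and THBS1, a matrix glycoprotein (264 to 1537 CPM in late_CC, against 20.6 to 93.3 CPM in early_CC; log2 fold change 3.72 ± 0.97, adjusted p = 0.004), rose as well.

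Several genes close to silent in late_CC headed the falls. PAG11, of the pregnancy-associated glycoproteins of ruminant trophoblast, had no count in late_CC, a limit of 0.0361 CPM for 3 counts over the group that covers counting error only. It stood at 21.3, 5.26, 1.54, 15 and 7.07 CPM in early_CC 1 to 5, so it was at least 277-fold lower in late_CC. ISYNA1, which makes inositol phosphate from glucose phosphate (ENSBTAG00000017482, chromosome 7, 4737566 to 4740763), stood at 11.8, 9.04, 2.56, 9.91 and 8.66 CPM in late_CC 1 to 5, against 337, 537, 298, 549 and 635 CPM in early_CC 1 to 5 (log2 fold change -5.80 ± 0.39, adjusted p = 2.7e-10). No library of either group came near the other group. GRB7, an adaptor of receptor tyrosine kinases, stood at 0, 0, 0.138, 0.121 and 0 CPM in late_CC 1 to 5, against 8.31, 10.6, 16.3, 15 and 11.7 CPM in early_CC 1 to 5 (log2 fold change -7.80 ± 0.58, adjusted p = 1.1e-09). The epithelial transcription factor GRHL3 (-6.94 ± 0.69), the cadherin CDH13 (-6.69 ± 0.54), MGC133636 (-6.51 ± 0.51), the growth factor PDGFB (-5.76 ± 1.11) and PNMT, the enzyme that makes adrenaline (-5.71 ± 1.11), fell as far. Among abundant genes the phosphatase inhibitor PPP1R1A (-4.74 ± 0.45), the interferon-induced gene IFI27 (-3.92 ± 0.49), MS4A8 (-3.91 ± 0.38), the LIM domain gene CRIP1 (-3.32 ± 0.62) and PTGDS (-3.38 ± 0.58) fell. PTGDS, a prostaglandin D synthase, stood at 170.3, 148, 16.7, 144 and 161 CPM in late_CC 1 to 5, against 1068, 1442, 1086, 917 and 2155 CPM in early_CC 1 to 5. These genes were picked for large changes without overlap, so their sizes are no separate support.

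The cumulus and mural changes differed for 4486 genes (31.4%), 2074 with the more positive change in cumulus cells (14.5%) and 2412 with the more negative one (16.9%). Of the 6457 cumulus calls 3512 (54.4%) also differed from the mural change, namely 1540 rises with a positive and 1947 falls with a negative difference, beside 3 rises and 22 falls of opposite sign. The largest positive differences were those of HBA1 (8.07 ± 2.004), HBA (7.64 ± 2.56), SERTAD4 (6.27 ± 1.63), KEH36_t15 (6.05 ± 1.13), JAG2 (5.95 ± 1.51) and HBZ (5.70 ± 1.87). HBA was at or below 0.375 CPM in each mural library of both stages. SERTAD4 varied widely within late_CC, at 2.69, 15.6, 37.8, 2.11 and 0.141 CPM in late_CC 1 to 5, against 0, 0.561, 0.513, 0 and 0.321 CPM in early_CC 1 to 5. The largest negative differences were those of PAG11 (-7.07 ± 2.28), DCN (-6.07 ± 1.77), the surface protein CD99 (-5.75 ± 0.91), the annexin ANXA1 (-5.27 ± 1.48), the keratin KRT8 (-5.24 ± 1.63) and the adenosine-forming enzyme NT5E (-5.18 ± 1.63). CD99 stood at 1.26, 0.491, 2.98, 0.785 and 1.97 CPM in late_CC 1 to 5, against 84.9, 54, 58.8, 88.1 and 101 CPM in early_CC 1 to 5 (log2 fold change -5.68 ± 0.73, adjusted p = 4.5e-06). In cumulus cells ANXA1 (-3.82 ± 1.12), KRT8 (-3.00 ± 1.17) and NT5E (-5.38 ± 1.30) were called lower. The KRT8 call was made in no fit that left out 1 cumulus library other than early_CC 4. Its cumulus levels did not overlap, with 38.7 to 66.3 CPM in late_CC, against 272 to 539.5 CPM in early_CC. In late_MGC 3 KRT8 stood at 2829 CPM, and in the other late_MGC libraries at 6.77 to 18.3 CPM. Mural libraries share the fit's estimate of spread, and the part of late_MGC 3 in the KRT8 call was not tested. NT5E overlapped through early_CC 3 (0.257 CPM), and limma-voom did not call its fall (adjusted p = 0.0635). Without late_MGC 3 the differences of DCN (-1.96, adjusted p = 0.147), ANXA1 (-1.89, adjusted p = 0.0634), KRT8 (-0.01, adjusted p = 0.994) and NT5E (-1.83, adjusted p = 0.27) were not called. Without all 3 libraries that stand apart, late_MGC 3 among them, the ANXA1 difference was called (-2.76, adjusted p = 0.00452), and those of DCN (adjusted p = 0.223), KRT8 (adjusted p = 0.744) and NT5E (adjusted p = 0.126) were not. JAG2 differed by more without late_MGC 3 (9.44). The HBA difference was not called without early_MGC 5 (4.54, adjusted p = 0.964), that of HBA1 without early_MGC 1 (7.07, adjusted p = 0.0835), that of HBZ without early_MGC 1 or 2 (adjusted p = 0.0949 and 0.171) and that of PAG11 without late_MGC 1 (-5.45, adjusted p = 0.0908). For HAS2 the difference was 5.53 ± 1.80, adjusted p = 0.021, and without late_CC 3 it was 3.06 (adjusted p = 0.162). Limma-voom kept 10 of the 20 differences examined, and did not call those of HBA, SERTAD4, JAG2, HBZ, PAG11, DCN, ANXA1, KRT8, NT5E and GJA4.

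**Figure D5:**
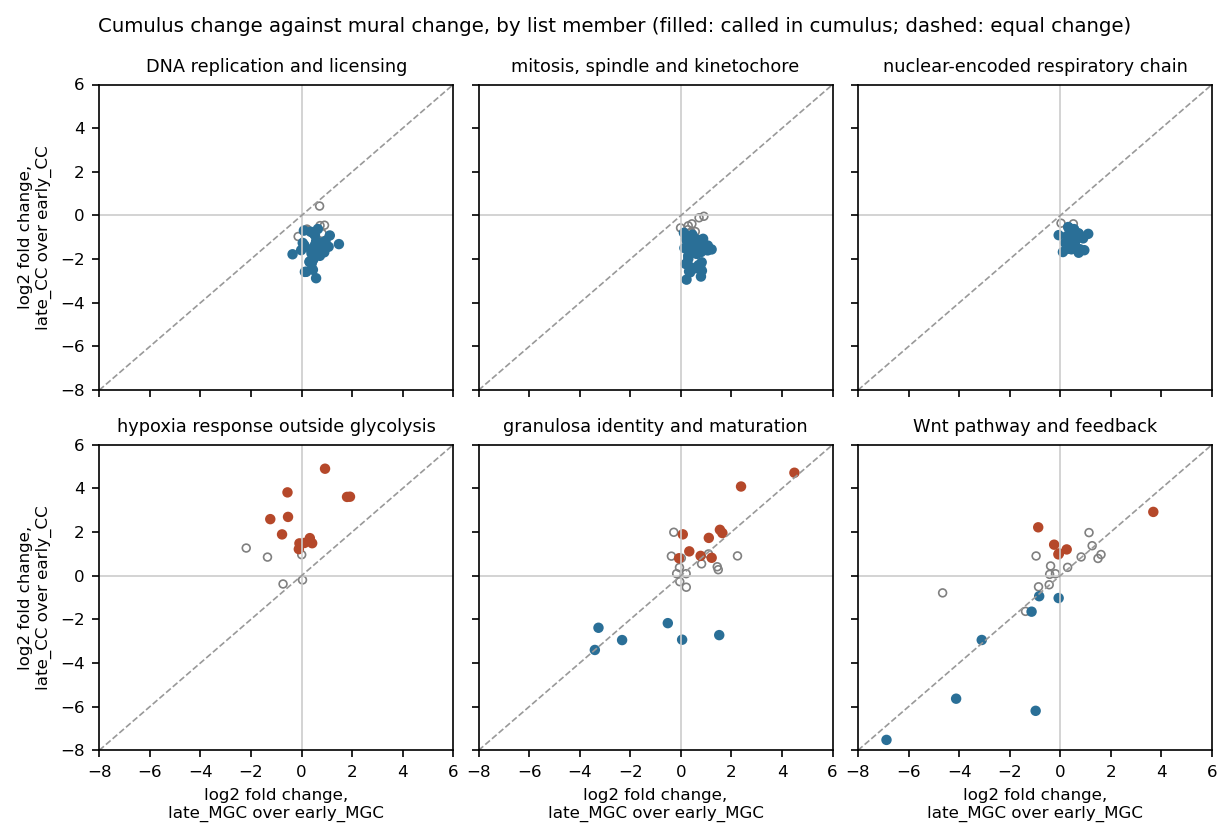
Each point is 1 tested list member, with the log2 fold change of late_MGC over early_MGC on the x axis and of late_CC over early_CC on the y axis; filled points are called in cumulus cells and the dashed line marks equal change. Replication, mitosis and respiratory chain genes lie below the line with mural medians of 0.53, 0.46 and 0.45, hypoxia genes mostly above it, and WT1 (-3.40 in both) and NKD1 (-6.87 in mural and -7.52 in cumulus cells) near it.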

How the data were processed

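The authors deposited raw read counts per gene for 24 libraries, made from very small inputs with a SMART-Seq v4 kit and Nextera XT, per the labels' protocols. Per the file headers, featureCounts 2.0.0 counted reads over exons of the ARS-UCD1.2 Ensembl annotation with no strand option, and the deposited length column (another value, no count) is the summed exon length in bases. The submitters' processing notes also name fastp 0.20.0, HISAT2 2.1.0 and SAMtools 1.10. Counting without strand cannot separate overlapping or antisense genes, and near-identical copies (globins, histones, BOLA-DQB1) may share reads. A further 1 column belongs to no sample (41567882 undetermined counts, 8.30% of the table) and was not used.

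The table pairs no symbols with its identifiers. Symbols came from RefSeq genes of ARS-UCD2.0 by the best mutual overlap in position, at least 0.5 of the joint span. Of 12219 genes of at least 1 CPM, 10805 (88.4%) received one. With all positions shifted by 1000000 bases, 1039 did. CDKN1A was not matched.

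One model over 5 groups and 24 libraries was fitted with edgeR 4.0.16 in R 4.3.3 (TMM, filterByExpr, robust quasi-likelihood test, residual degrees of freedom 19), which gave 14298 tested genes and a biological coefficient of variation of 42.4%. Adjusted p-values in the text are from this test with Benjamini-Hochberg adjustment over all tested genes unless another tool is named. A contrast of contrasts tested the cumulus change against the mural one. Alternatives were RLE scaling, other filters, DESeq2 1.42.0, limma 3.58.1 (voom), length-corrected offsets, the 2 cumulus groups alone, a replicate block and each library left out. No 2 libraries of a group agreed within counting noise.

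Genes were named by fixed rules: the 12 largest rises and falls of at least 10 CPM without overlap, the 8 largest each way of at least 100 CPM, up to 4 called members per list in its main direction and 2 in the other by lowest p, the 6 largest differences from mural cells each way, and a list by name. The members, lists and rules were chosen with earlier results of these data known. Promoter sequences were not used here. Single members of 2 lists are not reported here.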

Additional observations from a re-analysis of the deposited data

Results flagged for a closer look

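Among 370 sets of 5 libraries examined, 41 held 1 library far from the other 4. The rule flags about 1 in 20 sets where values are independent and normally distributed. CPM need not be so distributed and the sets share the same libraries, so that rate is no measure of chance here. Library late_CC 3 was the far library in 21 of the 41 sets, 15 times as the highest and 6 times as the lowest. It was far above the other late_CC libraries in mitochondrial share (27.7% of counts, the others 11.4% to 15.7%) and far below them in mean correlation with its group (0.914, the others 0.954 to 0.964).

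Late_CC 3 was high in mitochondrial genes, at 69200 CPM for KEH36_r02, 1096 CPM for ATP8, 15560 CPM for COX1 and 11710 CPM for COX3. It was also high for the matrix genes HAS2 (11 CPM, the others at most 0.986) and PTX3 (5.68 CPM, the others at 0). The same library was the highest for PTGES2 (199 CPM), CDH2 (610 CPM), TGFBR3 (52.7 CPM), MYC (448 CPM), PDGFRA (79.5 CPM), PDGFB (2.77 CPM), ANXA1 (7.41 CPM) and NT5E (1.25 CPM). It was the lowest for PDK1 (28.8 CPM), HSD3B1 (39.5 CPM), GPX4 (364 CPM), PLEK (15.8 CPM) and PTGDS (16.7 CPM). The part of that library's mitochondrial share in its other values was not tested.

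Late_CC 4 was high for UHRF1 (15.2 CPM), E2F8 (8.64 CPM), FOSB (19.03 CPM), TIMP3 (28.1 CPM) and SLC2A1 (443 CPM). Late_CC 1 was high for RFC3 (37.3 CPM) and SOD2 (34.8 CPM), late_CC 2 for AXIN2 (4.37 CPM) and late_CC 5 for GRIK2 (31.0 CPM). Among early_CC libraries, early_CC 1 was high for HAS2 (0.63 CPM), DCN (146 CPM) and LATS1 (12.8 CPM) and low for SQLE (63.8 CPM) and PARD3 (24.8 CPM). Early_CC 3 was high for PTCH1 (16.7 CPM), SLC1A1 (3.81 CPM) and SLC2A1 (119 CPM). Early_CC 4 was low for CCNA2 (28.6 CPM) and NPR2 (6.85 CPM), and early_CC 5 for FST (3849 CPM).

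In a chosen list, 20 genes had a change of late_CC over early_CC that differed from that of late_MGC over early_MGC by edgeR's test. Over all tested genes 4486 (31.4%) differed, and the list held the 6 largest differences each way for their size. The more positive cumulus changes were those of HBA1 (difference 8.07 on the log2 scale), HBA (7.64), SERTAD4 (6.27), KEH36_t15 (6.05), JAG2 (5.95), HBZ (5.70), HAS2 (5.53), PFKFB3 (4.38), VEGFA (4.37) and MYO10 (1.74). The more negative ones were those of PAG11 (-7.07), DCN (-6.07), CD99 (-5.75), ANXA1 (-5.27), KRT8 (-5.24), NT5E (-5.18), GJA4 (-4.01), SPC24 (-3.59), NDUFA4 (-2.43) and HSD3B1 (-2.34). The differences of SERTAD4, KEH36_t15, JAG2, CD99, VEGFA, PFKFB3, MYO10, HSD3B1, SPC24 and NDUFA4 kept their call in every fit that left out 1 library. Of these, limma-voom did not call SERTAD4 (adjusted p = 0.0586) and JAG2 (adjusted p = 0.156).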

How the results depend on the processing

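The counts of called genes stayed within 1.5 times the reported ones under every alternative tried. Leaving out 1 library gave 2809 to 3401 rises and 2911 to 3240 falls between the cumulus stages, and 1749 to 2547 positive and 2077 to 2591 negative differences from the mural change. The lowest of the other settings were 2419 rises and 2222 falls among genes of at least 10 CPM. That filter left 7708 tested genes, against 14298 in the reported fit, so these counts are out of fewer genes. The highest were 3431 rises with limma-voom and 3687 falls without the 3 libraries that stand apart, a setting chosen after seeing the data. Without mitochondrial genes, also chosen later, 3069 rose and 3330 fell. Of 168 called genes named in the text, 159 to 165 kept call and direction when 1 library was left out, 160 with length-corrected offsets, 162 with limma-voom and 168 with RLE scaling. DESeq2 kept all of the 165 to which it gave an adjusted p.

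Among cumulus changes, directions turned in genes not called in the reported fit. With length-corrected offsets COX1 stood at 0.061, COX3 at 0.60, FSHR at -0.026 and CDH1 at -0.024. Leaving out 1 library gave COX3 between -0.38 and 0.0066, the highest without early_CC 4, and FSHR its lowest value of -0.0016 without early_CC 2. PTX3 was -0.70 with limma-voom, -4.50 without late_CC 3 (up to 3.41 without another library) and -4.53 without the 3 libraries that stand apart (edgeR's adjusted p = 0.0359). FSCN1 ranged from -0.34 to 0.157 when 1 library was left out, and was positive in 5 such fits, at 0.015 without early_CC 1, 0.14 without early_CC 5, 0.157 without late_CC 1, 0.016 without late_CC 2 and 0.012 without late_CC 4. The KRT8 difference from mural cells was called, and without the 3 libraries it was 0.196. The cause of these turns was not tested.

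Without those 3 libraries 8 steroid genes and 8 of the 12 granulosa markers rose (5 and 5 in all libraries), 5 expansion, 7 cyclic nucleotide, 5 p53 and 5 nutrient genes fell (3, 4, 3 and 2 in all libraries), 5 histone genes rose (3 in all libraries), and 4 endothelial and 4 theca and stroma markers fell (2 and 1 in all libraries).

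The labels do not say whether replicate numbers pair the samples, and so few same-number libraries cannot settle it. Deviations of late_CC and early_CC libraries with the same number correlated at -0.05 to 0.20, those with other numbers at -0.14 to 0.07, and 1 late_CC library correlated best with its own number. A replicate block gave 3207 rises and 3518 falls, and of 164 called genes named in the text 3 then lost their call, SQLE (1.33, adjusted p = 0.0746), CYP19A1 (adjusted p = 0.0549) and LDHB (adjusted p = 0.0679), while INHA (adjusted p = 0.0359), STAR (adjusted p = 0.0151) and GJA1 (adjusted p = 0.0258) gained one. In simulated counts with 14298 genes, the comparison of cumulus stages recovered 38% of 100 genes changed 2-fold and 86% of 100 genes changed 4-fold. The test of the difference from mural cells recovered 14% and 66% of them. Far fewer genes were changed there than the 45.2% called in these data, so these shares are not the recovery of the reported fit. Smaller changes and differences can go uncalled.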
